A study of Sus scrofa with 12 samples.

Results

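Genes for cytokines, chemokines, their receptors, Toll-like receptors, CD molecules and the pig major histocompatibility complex (MHC) were followed through development of a skeletal muscle. The members were the genes whose single symbol in the platform annotation starts with IL or CCR and a digit, CCL, CXCL, CXCR, TLR, TNF, SLA- or CD and a digit. Where a symbol had several probe sets, the brightest by its 12-array mean was taken. This gave 130 genes, from 180 probe sets, of 6765 symbols on the array, and 95 of the 130 had 1 probe set. SLA, for swine leucocyte antigen, is the pig MHC.

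MHC class I molecules show peptides from inside a cell to killer T cells, and class II molecules show peptides taken up from outside to helper T cells, mostly on macrophages, dendritic cells and B cells. Chemokines steer the movement of leucocytes through receptors on their surface, and interleukins and tumour necrosis factor (TNF) family proteins carry signals between cells. In skeletal muscle these genes are read in resident leucocytes, vessel walls and connective tissue as well as in muscle fibres, and a whole-muscle extract mixes them all. Fewer cells of a type and less RNA per cell therefore cannot be told apart in any value given here.

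The study took longissimus dorsi, which runs along the spine, from Meishan pigs, a Chinese breed. The 4 groups were fetuses at 65 days post coitus (dpc) and pigs at 3, 60 and 120 days after birth, with 3 arrays each described as biological replicates, and no group carried a treatment or a transgene. Fetuses of one sow counted as 1 individual, and the labels give no sex, litter or hybridization date. The study asked how expression changes over this development.

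Each value is a deposited, linear probe-set intensity, and array medians lay between 49.1 and 52.6. Skeletal-muscle markers were high on every array, with CKM, muscle creatine kinase, at 4577, 8162 and 4578 in the fetus and from 8321 to 9141 after birth. Changes are given as log2 of the value plus 21, from one limma fit over all arrays. A gene is called when its two-sided p, adjusted by Benjamini-Hochberg over all 23999 probe sets tested, is under 0.05. A pseudocount of 21 understates changes of dim genes. Of the 130 members, 87 passed a filter on low values (above the 40th percentile of the array on at least 3 arrays), but none was left out of the test. On all 12 arrays 37 members lay above the array median, and 45 lay above it on none.

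One array stood apart in these genes, fetal replicate 3. It was the highest fetal array for 96 of the 130 members (73.8%), against 36.4% of all probe sets tested. Its value was at least 2-fold the mean of the other fetal arrays for 40 members (30.8%), against 3.08% of all probe sets, and the median ratio was 1.39 against 1.01. CXCL9, a chemokine induced by interferon-gamma that draws T cells, read 10.8, 10.97 and 1689.5 on fetal replicates 1 to 3. CD74, the invariant chain that escorts class II molecules, read 61.5, 45.1 and 1213. CCL2, which recruits monocytes, read 63.0, 46.0 and 860.3. In each of these 3 genes the third array was far above both others and above all 9 arrays after birth.

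By family, the median ratio of fetal replicate 3 to the mean of the other fetal arrays was 18.7 for the 7 class II genes, 8.05 for the 5 class I genes, 1.93 for the 6 Toll-like receptors and 1.45 for the 42 CD molecules, but 1.13 for the 18 interleukins and 1.18 for the 13 interleukin receptors. All 5 class I and 6 of 7 class II genes were at least 2-fold up on it, against 1 of 18 interleukins. The ratio was 15.8 for CCL2, 8.08 for CCL8 and 18.2 for CD2, a T and natural killer cell adhesion molecule. It was 9.52 for CD163, the haemoglobin scavenger receptor of macrophages, 8.21 for CD53, a leucocyte tetraspanin, and 10.8 for TNFSF10, the death ligand TRAIL. Among 20 members in which 1 array lay at least 2 log2 units beyond both others of its stage, that array was fetal replicate 3 in 18. Genes outside the rule moved on the same array. At least 2-fold up there were 17 of 19 interferon-induced genes (median ratio 5.30), 7 of 8 macrophage markers (8.52), 6 of 10 pan-leucocyte markers (2.79), 8 of 15 genes of antigen processing (4.07) and 1 of 4 T and natural killer cell markers. The counts were 0 of 5 neutrophil, 0 of 5 erythroid, 0 of 5 fibroblast and 0 of 8 skeletal-muscle markers. IFNG, interferon-gamma itself, read 15.9, 6.48 and 79.4. The summed level of the macrophage markers was 762, 633 and 6930.1 on the fetal arrays and between 735 and 2355 after birth. That of the pan-leucocyte markers was 492, 552 and 1705 and then between 557 and 792. The part of these cells or of interferon in the values of that array was not tested. Results that rest on it are given with and without it. The fit without it was chosen after its values were seen, from the planned set that leaves out each array in turn. In genes high on that array, leaving it out lowers the fetal mean and the spread together. Their rises from the fetus in that fit rest in part on this choice, and on fetal replicates 1 and 2 alone.

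**Figure D1:**
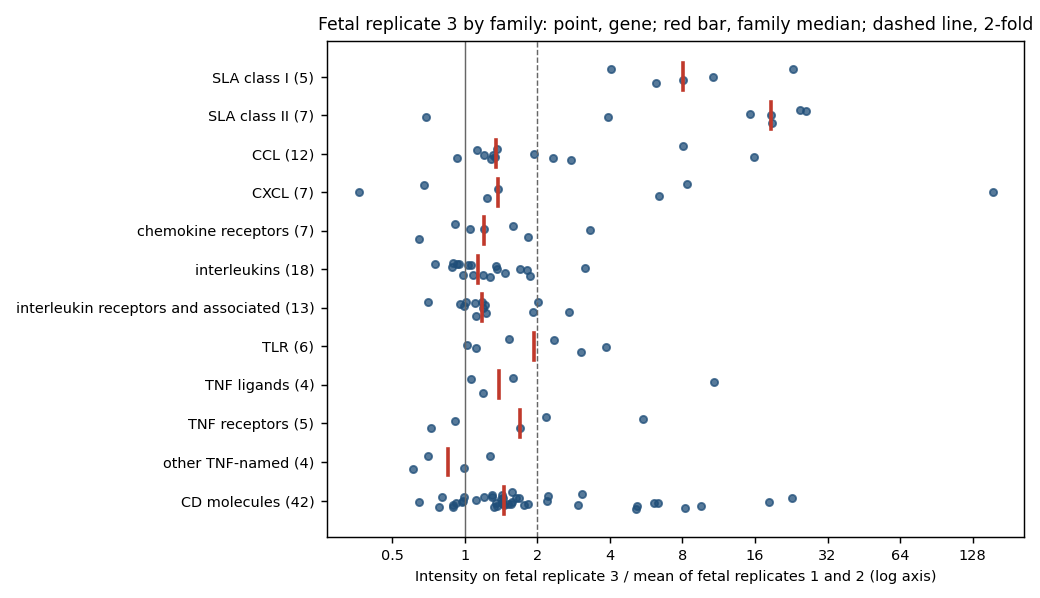
Ratio of the intensity on fetal replicate 3 to the mean of fetal replicates 1 and 2 (horizontal log axis) for the 130 members by family, with the number of genes in brackets; each point is a gene, the red bar is the family median and the dashed line marks 2-fold. The class I and class II medians are 8.05 and 18.7, while the interleukin median is 1.13.

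Over the 4 stages 42 of 130 members (32.3%) were called by the overall F test, against 39.8% of all probe sets, and 57 without fetal replicate 3, against 36.1%. From 65 dpc to 3 days 23 members (17.7%) were higher and 19 (14.6%) lower, against 20.3% and 17.4% of all probe sets. The members' shares thus lay a little under the background. With each array centred on its hybridization controls the counts became 6 higher and 31 lower, beside 1238 and 7399 of the 23999 probe sets. That centring moved the median of all probe sets from 0.06 to -0.22 (log2) and the share of higher calls among all calls from 53.9% to 14.3%. All 19 falls were called under it too, but of the 23 rises only 6 were, and 5 turned their sign. Without fetal replicate 3 there were 33 higher and 17 lower of the 130 members at this step, against backgrounds of 18.6% and 17.3%. Of these, 22 and 16 were also called with it. The share of higher members then lay above its background and that of lower members below.

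Of the 23 members called higher at 3 days, 15 had their higher stage mean below the median of all values (50.6), so these rises lie at the dim end of the scale. The 25th percentile of the values was 18.6 to 20.2 on the fetal arrays and 21.2 to 23.0 after birth, so the dim end itself lay higher after birth. Detection calls were not used here, and the part of this shift in the dim rises was not tested. Of the 19 falls 3 were as dim. With every array kept but 1 in turn, 13 of the 23 rises and 12 of the 19 falls were called in all 12 fits.

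After birth few members were called by limma. Between 3 and 60 days none was, with 14 at an unadjusted p under 0.05 and backgrounds of 0.392% higher and 0.421% lower. Between 60 and 120 days none was either, with 5 at an unadjusted p under 0.05 and backgrounds of 0.00417% and 0%. Between 3 and 120 days 1 member was higher, CD9, and 1 lower, IL13RA1, with 13 at an unadjusted p under 0.05, against 1.33% and 1.18% of all probe sets. Without fetal replicate 3 the counts were 1 and 0 at the first of these steps (backgrounds 0.504% and 0.488%), 0 and 0 at the next (0.00417% and 0%), and 10 and 1 from 3 to 120 days (1.68% and 1.52%). Neither mean in that last comparison uses a fetal array, which enters only through the spread shared by the stages. The fit of only the 6 arrays compared gave 12 and 2, beside 722 and 678 of the 23999 probe sets. Centring on the hybridization controls lowered the share of higher calls among all calls from 48.2% to 29.6% between 3 and 60 days and from 53.1% to 23.4% between 3 and 120 days.

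From 65 dpc to 120 days 26 members (20%) were higher and 17 (13.1%) lower, against 24.4% and 19.6% of all probe sets. Centring on the hybridization controls gave 5 and 49, beside 1263 and 12064 of the 23999 probe sets. It turned the sign of 12 of the 26 rises and of none of the 17 falls. It moved the median of all probe sets from 0.07 to -0.36 and the share of higher calls among all calls from 55.5% to 9.48%. Without fetal replicate 3, 51 of 130 members were higher and 15 lower, against 23.1% and 19.3%, with the higher share above its background. Of the 51, 23 were also called with it, and 20 were called with both that array left out and the hybridization controls as the reference. The median change with all arrays was 0.13 over the 130 members and 0.07 over all probe sets.

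**Figure D2:**
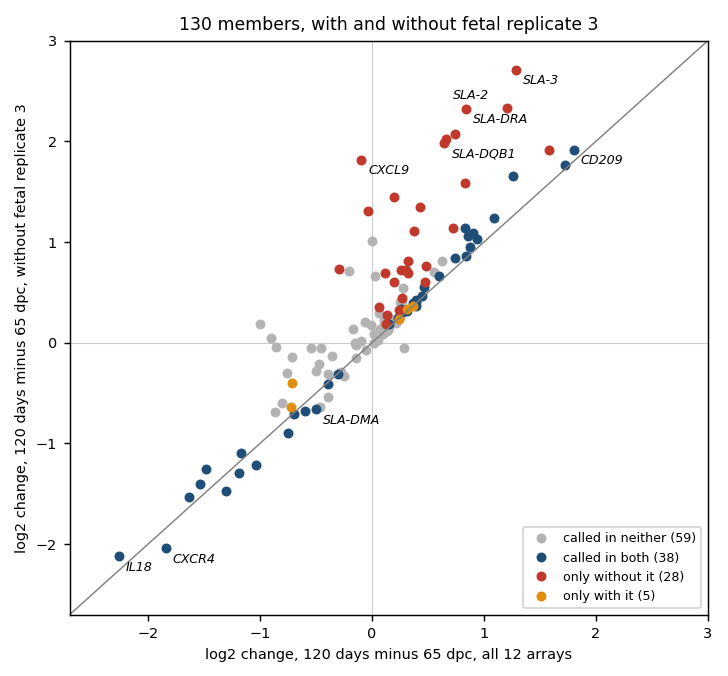
Fitted log2 change from 65 dpc to 120 days for each of the 130 members with all 12 arrays (horizontal) and without fetal replicate 3 (vertical), coloured by whether the adjusted p was under 0.05 in each fit; the diagonal marks equal values. Of the members 38 are called in both, 28 only without that array and 5 only with it, and the 28 include most SLA genes, which lie above the diagonal.

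SLA-2 and SLA-3 are classical heavy chains that present peptide at the surface, and SLA-6, SLA-7 and SLA-8 are class Ib genes. The class I sequences are near-identical copies, so a probe set may read more than 1 of them and the gene names are uncertain. SLA-1 was carried only by probe sets with several symbols. SLA-2 read 361, 452 and 4354 at 65 dpc, 1161, 1331 and 1242 at 3 days, 1428, 1792 and 2861 at 60 days and 1652, 1793 and 3184 at 120 days. Fetal replicates 1 and 2 lay below every later array and replicate 3 above them all. SLA-3 read 107, 106 and 2459 at 65 dpc, 338, 427 and 287 at 3 days, 534, 585 and 693 at 60 days and 791, 630.1 and 1087 at 120 days. With all arrays its change from 65 dpc to 120 days was 1.29 ± 0.83 (SE, adjusted p = 0.224) and that of SLA-2 1.21 ± 0.69 (SE, adjusted p = 0.17), and none of the 5 class I genes was called at any step. With fetal replicate 3 left out, limma gave 1.53 ± 0.26 (SE, adjusted p = 0.00119) for SLA-3 and 1.57 ± 0.33 (SE, adjusted p = 0.00372) for SLA-2 at 3 days, and 2.71 ± 0.26 (SE, adjusted p = 1.57e-05) and 2.33 ± 0.33 (SE, adjusted p = 0.000234) at 120 days. Both stayed called there under the hybridization-control and quantile scalings. The adjusted p-values without fetal replicate 3 do not allow for leaving it out after its values in these genes were seen. SLA-6 and SLA-7 were then called higher at 120 days too, by 1.59 ± 0.28 (SE, adjusted p = 0.00109) and 0.82 ± 0.20 (SE, adjusted p = 0.00759), the second not under the hybridization-control scaling (adjusted p = 0.141). SLA-8 read 165, 111 and 1112 in the fetus and between 85.7 and 233 after birth, and was called in neither fit. From 3 to 120 days without fetal replicate 3, SLA-3 was the 1 class I gene of 5 called, beside 1.68% of all probe sets. It was higher by 1.19 ± 0.24 (SE, adjusted p = 0.0195), and was called under hybridization-control (adjusted p = 0.0264) and quantile scaling (adjusted p = 0.0183). In the fit of the 6 arrays compared SLA-3 (adjusted p = 0.0237) and SLA-6 (adjusted p = 0.0312) were called at this step. B2M, the light chain shared by class I molecules and no member here, read 3502, 3136 and 3896 in the fetus, so it did not share the excess of fetal replicate 3.

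SLA-DRA read 92.9, 112 and 2665 at 65 dpc, 153, 251 and 102 at 3 days, 355, 445 and 600.3 at 60 days and 514, 388 and 1048 at 120 days. It encodes the alpha chain of the DR molecule, the peptide-presenting dimer. SLA-DRB1, the DR beta chain, read 126, 98.8 and 2096 at 65 dpc, 200.3, 281 and 165 at 3 days, 304, 352 and 513 at 60 days and 536, 444 and 653 at 120 days. SLA-DQB1 read 115, 105 and 2083 at 65 dpc, 152, 218 and 124 at 3 days, 257, 397 and 473 at 60 days and 499.8, 413 and 593 at 120 days. In all 3 the third fetal array was the highest of the 12, the other fetal arrays were at or near the low end, and the 120-day arrays lay above all 3-day arrays. SLA-DQA1 and SLA-DMB, a chain of the DM molecule that loads peptide, had the same order between 3 and 120 days.

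From 3 to 120 days the log2 change was 1.78 ± 0.90 (SE, adjusted p = 0.368) for SLA-DRA with all arrays. With that array left out the same difference had 1.78 ± 0.36 (SE, adjusted p = 0.023). SLA-DQB1 then had 1.51 ± 0.26 (SE, adjusted p = 0.00994), SLA-DRB1 1.27 ± 0.25 (SE, adjusted p = 0.02), SLA-DQA1 1.24 ± 0.27 (SE, adjusted p = 0.0288) and SLA-DMB 1.099 ± 0.23 (SE, adjusted p = 0.0255). These 5 of 7 class II genes, beside 1.68% of all probe sets, were also called in the fit of the 6 arrays alone, SLA-DRA with adjusted p = 0.0342 and SLA-DQB1 with adjusted p = 0.00908. That fit of 6 arrays also called SLA-DMA, but lower at 120 days, by a change of -0.63 ± 0.15 (SE, adjusted p = 0.0493). Hybridization-control and quantile scaling without fetal replicate 3 kept the calls of all 5 rises. Against the fetus without that replicate the changes at 120 days were 2.32 ± 0.41 (SE, adjusted p = 0.000958) for SLA-DRA, 2.07 ± 0.28 (SE, adjusted p = 0.000184) for SLA-DRB1 and 1.98 ± 0.29 (SE, adjusted p = 0.000278) for SLA-DQB1, against 0.84 ± 0.90 (SE, adjusted p = 0.468), 0.74 ± 0.78 (SE, adjusted p = 0.46) and 0.65 ± 0.79 (SE, adjusted p = 0.525) with it. SLA-DMB turned its sign with the array, from -0.03 ± 0.78 (SE, adjusted p = 0.976) to 1.31 ± 0.26 (SE, adjusted p = 0.002). SLA-DOA, part of the DO molecule that tempers peptide loading, was called at 120 days without it, by 0.73 ± 0.19 (SE, adjusted p = 0.0107), but not under hybridization-control scaling (adjusted p = 0.226). For class II genes too, the adjusted p-values without fetal replicate 3 do not allow for that choice made after seeing its values.

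SLA-DMA, the partner chain of SLA-DMB, went the other way on its probe set with the higher mean. It read 247, 228 and 164 at 65 dpc, 194, 247 and 259.6 at 3 days, 143, 157 and 122 at 60 days and 141, 137 and 149 at 120 days, with fetal replicate 3 the lowest of its stage. Its change from 65 dpc to 120 days was -0.50 ± 0.19 (SE, adjusted p = 0.0451). This call was lost when any of 7 arrays was left out. These were fetal array 1 (adjusted p = 0.15), fetal array 2 (adjusted p = 0.115), 3 days array 2 (adjusted p = 0.0592), 60 days array 1 (adjusted p = 0.0521), 120 days array 1 (adjusted p = 0.1), 120 days array 2 (adjusted p = 0.118) and 120 days array 3 (adjusted p = 0.0823). It was also lost under quantile scaling (-0.34, adjusted p = 0.15), median centring (adjusted p = 0.0541), the replicate block (adjusted p = 0.0689) and in the fit of the 6 arrays compared (adjusted p = 0.0647). Without fetal replicate 3 the limma change was larger, at -0.66 ± 0.19 (SE, adjusted p = 0.015). That fall was called under hybridization-control scaling (-1.10, adjusted p = 0.00174) and not under quantile scaling (-0.50, adjusted p = 0.0502). Its other probe set read 30.3, 24.2 and 404 in the fetus and 66.6, 49.6 and 61.9 at 120 days, so the pair disagree on the direction and on fetal replicate 3. CIITA, the master activator of class II genes and no member, rose from 63.1, 51.6 and 89.4 in the fetus to 134, 101 and 129 at 3 days, by 0.69 ± 0.18 (SE, adjusted p = 0.00968).

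**Figure D3:**
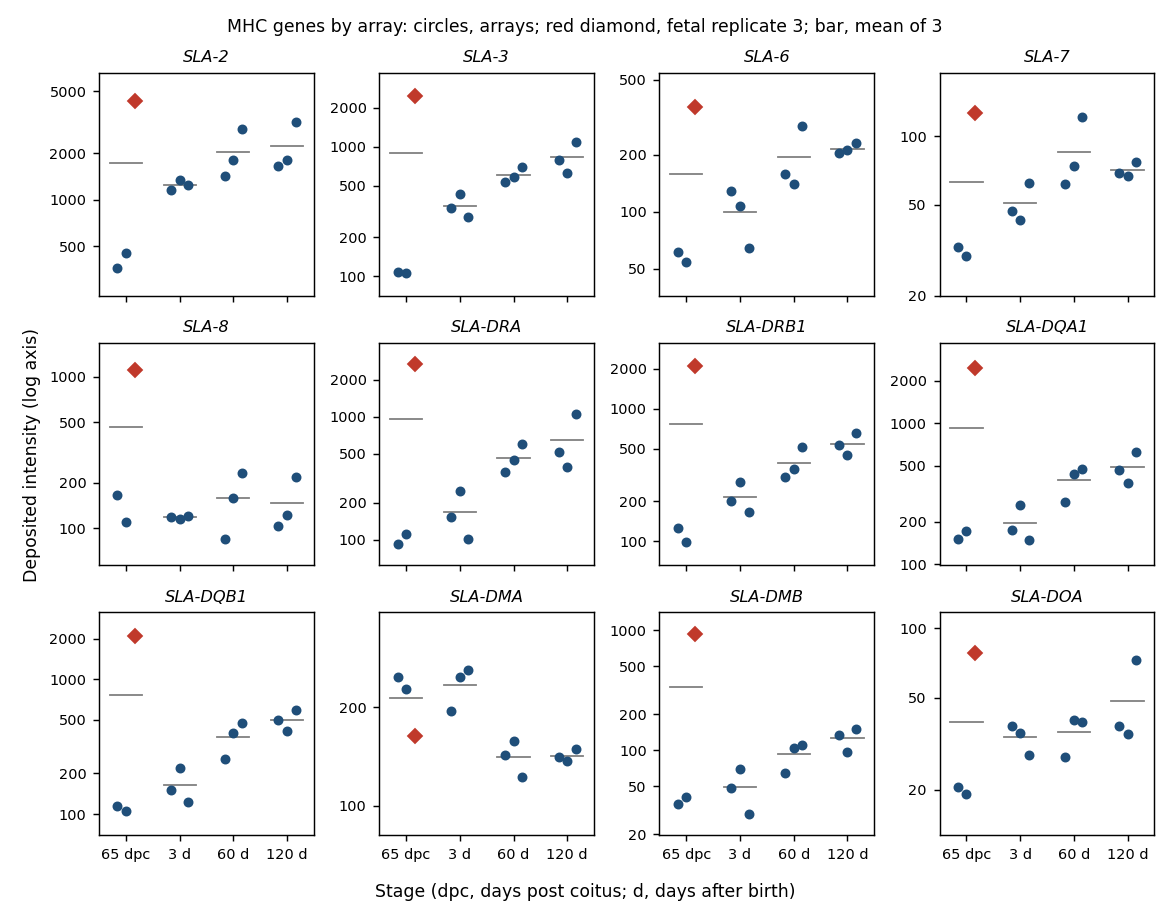
Deposited intensity (vertical log axis, a scale per panel) of the 12 SLA genes on the 12 arrays by stage; circles are arrays, the red diamond is fetal replicate 3 and the grey bar is the mean of 3 arrays. In all genes but SLA-DMA that diamond is the highest fetal value. The 120-day circles lie above all 3-day circles in genes of both classes, among them SLA-2, SLA-3, SLA-DRA, SLA-DRB1, SLA-DQA1, SLA-DQB1 and SLA-DMB.

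CXCL9 after birth read 18.8, 21.7 and 18.0 at 3 days, 18.5, 129 and 55.4 at 60 days and 110.1, 72.4 and 94.8 at 120 days. All 120-day arrays lay above all 3-day arrays, the 60-day arrays ran from within the 3-day range to above the 120-day range, and fetal replicates 1 and 2 were below all of them. From 3 to 120 days its change was 1.47 ± 1.12 (SE, adjusted p = 0.599) with all arrays, 1.47 ± 0.34 (SE, adjusted p = 0.0375) without fetal replicate 3, and had adjusted p = 0.00212 in the fit of the 6 arrays. Against the fetus the sign of its change turned with that array, from -0.10 ± 1.12 (SE, adjusted p = 0.95) to 1.82 ± 0.38 (SE, adjusted p = 0.0028). CXCL12, made by stromal cells and the ligand of CXCR4, read 816, 999.6 and 616 at 65 dpc, 447, 307 and 189.7 at 3 days, 453, 263 and 352 at 60 days and 415, 288 and 451 at 120 days. Every 3-day array lay below every fetal array, and its change was -1.36 ± 0.31 (SE, adjusted p = 0.00508), called in all 12 fits with 1 array left out. A second CXCL12 probe set fell as well at 3 days, a change of -1.20 (adjusted p = 0.0229). At 120 days it read 829, 425 and 559.6 against 536, 428 and 461 in the fetus, a change of 0.29 (adjusted p = 0.545). The first stayed lower, at -1.03 ± 0.31 (SE, adjusted p = 0.0174). The first probe set's call at 120 days was lost without fetal array 2 (adjusted p = 0.0673) and 120 days array 2 (adjusted p = 0.0781).

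CXCL2, a neutrophil attractant, read 15.1, 11.8 and 16.6 at 65 dpc, 57.9, 28.2 and 67.7 at 3 days, 139, 35.0 and 86.8 at 60 days and 122, 76.0 and 94.4 at 120 days. It was higher on all arrays after birth than in the fetus, by 0.98 ± 0.32 (SE, adjusted p = 0.0274) at 3 days and 1.72 ± 0.32 (SE, adjusted p = 0.001) at 120 days. The first call was lost without fetal array 1 (adjusted p = 0.0588), fetal array 2 (adjusted p = 0.0814), 3 days array 1 (adjusted p = 0.0857) and 3 days array 3 (adjusted p = 0.0892) and under hybridization-control scaling (0.70, adjusted p = 0.113), and the second held in all of these. CXCL14, a chemokine of epithelia and fat, read 289.7, 77.8 and 66.6 at 65 dpc, 124, 103 and 36.5 at 3 days, 42.4, 94.9 and 82.8 at 60 days and 217, 97.3 and 152 at 120 days. It was not called at any step. Its second probe set read 312, 144 and 71.7 in the fetus and 85.3, 51.8 and 27.9 at 3 days and was called lower, at -1.25 (adjusted p = 0.0264). CXCL16 and CXCL8 shared the excess of fetal replicate 3, with CXCL16 at 21.8, 22.0 and 139 and CXCL8 at 2.82, 6.37 and 38.3.

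Among the 12 CCL genes 2 were called higher at 3 days and 4 at 120 days against the fetus (16.7% and 33.3%), beside 20.3% and 24.4% of all probe sets, and none lower. With fetal replicate 3 left out 4 and 6 were higher, beside 18.6% and 23.1%. CCL21, which guides T cells and dendritic cells into lymph vessels, read 48.3, 54.0 and 61.2 in the fetus and 113, 79.9 and 91.6 at 3 days, with no overlap, a change of 0.61 ± 0.15 (SE, adjusted p = 0.00697) that was not called under hybridization-control scaling (0.33, adjusted p = 0.167). CCL14 rose from 19.9, 21.3 and 27.5 to 60.5, 54.9 and 63.5 at 120 days, by 0.88 ± 0.12 (SE, adjusted p = 0.000116), in all 12 left-out fits and under every scaling run. CCL4, a macrophage product, read 37.8, 40.8 and 91.6 in the fetus and 110.4, 98.0 and 127 at 120 days, a change of 0.83 ± 0.22 (SE, adjusted p = 0.00918). It was not called under hybridization-control scaling (0.40, adjusted p = 0.143). CCL24, an eosinophil attractant, read 56.0, 62.1 and 162 at 65 dpc, 55.7, 109.8 and 147 at 3 days, 132, 255 and 334 at 60 days and 357, 142 and 241 at 120 days. Its stages overlapped. The change at 120 days was 1.26 ± 0.43 (SE, adjusted p = 0.0293), and the call was lost under hybridization-control scaling (0.83, adjusted p = 0.0857) and without fetal array 1 (adjusted p = 0.106), fetal array 2 (adjusted p = 0.101), 120 days array 1 (adjusted p = 0.116) and 120 days array 3 (adjusted p = 0.0741). CCL5, a T-cell attractant, read 113, 88.1 and 195 in the fetus and between 148 and 199 after birth. As deposited it was called at 3 and 120 days only without fetal replicate 3, by 0.63 ± 0.18 (SE, adjusted p = 0.018) and 0.76 ± 0.18 (SE, adjusted p = 0.00579), and then not under hybridization-control scaling (0.35, adjusted p = 0.27 and 0.32, adjusted p = 0.256). Quantile scaling with all arrays called CCL5 at 120 days (0.61, adjusted p = 0.0407) and not at 3 days (adjusted p = 0.105). CCL2 and CCL8 lay between 20.7 and 155 and between 27.4 and 45.1 after birth, against 860 and 291 on fetal replicate 3.

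CXCR4, the receptor through which CXCL12 guides progenitor cells and leucocytes, read 363, 415 and 251 at 65 dpc, 83.7, 116 and 74.5 at 3 days, 101, 79.9 and 98.3 at 60 days and 86.4, 63.9 and 86.9 at 120 days. The fetal arrays were all more than 2-fold above every later array, and the arrays after birth overlapped with each other. Its change was -1.68 ± 0.21 (SE, adjusted p = 0.000101) at 3 days and -1.84 ± 0.21 (SE, adjusted p = 3.69e-05) at 120 days, called in all 12 left-out fits and under every scaling run. On CXCR4 fetal replicate 3 was the lowest of its stage. CCR1, a receptor of monocytes, read 55.8, 58.2 and 104 in the fetus and 48.7, 37.9 and 46.1 at 3 days, a change of -0.49 ± 0.18 (SE, adjusted p = 0.0452) that was lost in 9 of 12 left-out fits, among them the one without fetal replicate 3 (-0.26, adjusted p = 0.161). The other 8 arrays were 3 days replicates 1, 2 and 3, 60 days replicates 1, 2 and 3, and 120 days replicates 1 and 3, with adjusted p from 0.0517 to 0.141. Quantile scaling ended the call too (adjusted p = 0.0501). CCR2, the CCL2 receptor, changed by 0.32 ± 0.11 (SE, adjusted p = 0.0379) at 120 days. The sign turned under hybridization-control scaling (-0.12, adjusted p = 0.498), and the call was not made under quantile scaling (adjusted p = 0.0504) or with the replicate block (adjusted p = 0.0506). It was lost without fetal array 1 (adjusted p = 0.0627), fetal array 2 (adjusted p = 0.109), fetal array 3 (adjusted p = 0.0581), 3 days array 2 (adjusted p = 0.0502), 120 days array 1 (adjusted p = 0.0837) and 120 days array 3 (adjusted p = 0.153). CCR3 and CCR7 stayed under 28 on every array. Both were called higher at 3 and at 120 days, but both turned their sign at both steps under hybridization-control scaling (-0.03 and -0.17 for CCR3, -0.0085 and -0.16 for CCR7). None of these 4 calls was made under quantile scaling (adjusted p from 0.117 to 0.153), and each was lost in 3 to 5 of the 12 left-out fits.

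IL18, an inflammasome-released activator of interferon-gamma production, had the largest fall of the 130 members at 3 days and at 120 days with all arrays. It read 273, 212 and 331 at 65 dpc, 51.1, 53.1 and 40.3 at 3 days, 21.0, 37.9 and 33.9 at 60 days and 34.0, 33.1 and 52.7 at 120 days. All fetal arrays lay above all arrays after birth. The change was -2.07 ± 0.19 (SE, adjusted p = 1.19e-05) at 3 days and -2.26 ± 0.19 (SE, adjusted p = 3.88e-06) at 120 days, called in all 12 left-out fits and under every scaling run. CASP1, the protease that activates IL18 and no member, read 19.6, 17.8 and 466 in the fetus and 13.8, 23.3 and 17.8 at 3 days, high on fetal replicate 3 alone.

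IL17B read 118, 61.1 and 151 in the fetus and between 17.6 and 25.04 after birth, a change of -1.58 ± 0.20 (SE, adjusted p = 0.000112) by its probe set with the highest mean. Its other probe sets changed by -0.13 (adjusted p = 0.324) and -0.24 (adjusted p = 0.162), at intensities of 11.7 to 29.6, so the fall rests on 1 probe set. IL15, a growth factor of natural killer and memory T cells that muscle fibres also make, read 45.8, 26.8 and 114 at 65 dpc, 71.3, 90.8 and 88.3 at 3 days, 47.8, 131 and 114 at 60 days and 113, 90.5 and 108 at 120 days. It was called only without fetal replicate 3, by 0.88 ± 0.29 (SE, adjusted p = 0.0316) at 3 days and 1.14 ± 0.29 (SE, adjusted p = 0.00775) at 120 days, against 0.72 ± 0.34 (SE, adjusted p = 0.105) with it. Hybridization-control scaling ended the first of these calls (0.60, adjusted p = 0.0929) and not the second (0.70, adjusted p = 0.0352). IL1B, a central inflammatory cytokine, read 39.5, 25.7 and 32.1 in the fetus and 58.9, 54.2 and 55.4 at 3 days, a change of 0.54 ± 0.12 (SE, adjusted p = 0.00438). That rise was not called under hybridization-control scaling (0.26, adjusted p = 0.178) or by its second probe set, which changed by 0.09 (adjusted p = 0.347). IL10, which restrains inflammation, changed by 0.51 ± 0.17 (SE, adjusted p = 0.0293). It was lost without fetal array 1 (adjusted p = 0.0782), fetal array 2 (adjusted p = 0.128), 3 days array 1 (adjusted p = 0.101) and 3 days array 3 (adjusted p = 0.0585) and under hybridization-control scaling (0.23, adjusted p = 0.383).

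IL34, a ligand of the macrophage growth factor receptor, read 47.5, 45.0 and 47.9 in the fetus and 73.4, 72.7 and 68.7 at 120 days, a change of 0.45 ± 0.12 (SE, adjusted p = 0.00877) that fell to 0.02, adjusted p = 0.936 under hybridization-control scaling. None of the 18 interleukins lay above the array median on all arrays and 12 lay above it on none. IL6, the cytokine that contracting muscle is known to release, read between 9.39 and 16.6 on the 12 arrays, at the dim end. Its change of 0.23 ± 0.06 (SE, adjusted p = 0.00796) at 3 days turned to -0.05, adjusted p = 0.694 under hybridization-control scaling. IL2, IL4, IL5, IL7, IL13, IL17A and IL21 stayed under 23 on every array.

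Of 13 interleukin receptor genes 5 were called higher and 2 lower at 3 days, beside 20.3% and 17.4% of all probe sets, and 5 and 1 without fetal replicate 3, beside 18.6% and 17.3%. IL4R, the receptor chain for IL4 and IL13, read 155, 158 and 191 at 65 dpc, 459.7, 409 and 285 at 3 days, 230.3, 136 and 372 at 60 days and 303, 350.2 and 371 at 120 days. Its rise at 3 days was 1.08 ± 0.29 (SE, adjusted p = 0.0119). It was lost without 3 days array 1 (adjusted p = 0.0502). Its second probe set read 122, 151 and 252 in the fetus and 91.8, 78.0 and 414 at 3 days, a change of -0.16 (adjusted p = 0.804). IL7R, the IL7 receptor of lymphocytes, and IL2RG, the common gamma chain, were named after their values were seen. IL7R read 15.1, 17.8 and 18.2 at 65 dpc, 58.6, 48.4 and 38.4 at 3 days, 47.1, 38.2 and 45.0 at 60 days and 39.5, 39.7 and 64.4 at 120 days. This was a rise of 0.86 ± 0.14 (SE, adjusted p = 0.000791) that every left-out fit and every scaling called. IL2RG read 9.47, 9.85 and 26.1 in the fetus and 44.5, 38.2 and 29.9 at 3 days, a rise of 0.72 ± 0.17 (SE, adjusted p = 0.00682) that was not called under hybridization-control scaling (adjusted p = 0.0889). Both were at the dim end in the fetus. IL13RA1, which pairs with IL4R, read 136, 177 and 187 at 65 dpc, 163, 137 and 285 at 3 days, 122, 148 and 73.1 at 60 days and 50.9, 46.3 and 96.1 at 120 days. It fell between 3 and 120 days, a change of -1.32 ± 0.29 (SE, adjusted p = 0.0334), and from the fetus to 120 days, a change of -1.17 ± 0.29 (SE, adjusted p = 0.00669). The first call was lost without 3 days array 1 (adjusted p = 0.0726), 3 days array 3 (adjusted p = 0.0936), 120 days array 1 (adjusted p = 0.15) and 120 days array 2 (adjusted p = 0.155), and the second in none of the 12 left-out fits. IL11RA read 434, 317 and 265 in the fetus and 237, 263 and 212 at 3 days, without overlap, but the change was not called, at -0.45 ± 0.21 (SE, adjusted p = 0.106). IL1R1, the signalling receptor of IL1, changed by -0.68 ± 0.23 (SE, adjusted p = 0.0328). It was lost without fetal array 2 (adjusted p = 0.11), fetal array 3 (adjusted p = 0.0858), 3 days array 1 (adjusted p = 0.0925), 3 days array 2 (adjusted p = 0.0688) and 3 days array 3 (adjusted p = 0.0567), and under quantile scaling (-0.59, adjusted p = 0.0546).

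TLR4, the receptor for bacterial lipopolysaccharide, read 49.2, 86.9 and 262 in the fetus and between 28.6 and 73.0 after birth. TLR2, the receptor for lipoproteins, read 53.2, 84.6 and 209 and then between 34.3 and 78.3. In both genes fetal replicate 3 was the highest array and neither was called, with TLR4 at -0.92 ± 0.38 (SE, adjusted p = 0.0745) and TLR2 at -0.72 ± 0.33 (SE, adjusted p = 0.1) at 3 days. Under hybridization-control scaling both were called lower (-1.20, adjusted p = 0.0239 and -1.003, adjusted p = 0.0292). Without fetal replicate 3 the changes were -0.35 ± 0.25 (SE, adjusted p = 0.272) and -0.26 ± 0.23 (SE, adjusted p = 0.394). Of 4 other TLR4 probe sets 1 was called lower at 3 days with all arrays, at -0.64 (adjusted p = 0.0263). TLR6, which pairs with TLR2, read 30.5, 52.7 and 97.5 at 65 dpc, 19.6, 21.9 and 18.5 at 3 days, 40.8, 24.1 and 30.9 at 60 days and 27.2, 19.2 and 31.2 at 120 days. It fell at 3 days, a change of -0.90 ± 0.23 (SE, adjusted p = 0.00906) with all fetal arrays above all 3-day arrays. That call held in all 12 left-out fits, the one without fetal replicate 3 included, at -0.59 ± 0.17 (SE, adjusted p = 0.018). TLR9, the sensor of unmethylated DNA, read between 23.0 and 47.3 on the 12 arrays and was not called. Of their shared signalling partners, MYD88 read 61.5, 56.5 and 102 in the fetus and 92.2, 100.1 and 110.4 at 3 days and was not called, at 0.40 ± 0.17 (SE, adjusted p = 0.0819). Without fetal replicate 3 it was called higher, by 0.61 ± 0.15 (SE, adjusted p = 0.00785).

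TNFRSF12A is the receptor for TWEAK, a cytokine known for its effect on muscle mass. It read 126, 87.7 and 232 at 65 dpc, 919, 1193 and 461 at 3 days, 119, 556 and 1098 at 60 days and 266, 696 and 504 at 120 days. All 3-day arrays lay above all fetal arrays, and after birth the values ranged from 119 to 1193 within and across stages. Its rise at 3 days was 2.36 ± 0.64 (SE, adjusted p = 0.0119), the largest of the 130 members at that step. It was lost without fetal array 2 (adjusted p = 0.0505), and a second probe set rose too, by 2.72 (adjusted p = 0.0145). At 120 days its change from the fetus was 1.58 ± 0.64 (SE, adjusted p = 0.0598). This was called without fetal replicate 3, at 1.91 ± 0.70 (SE, adjusted p = 0.0434), and in the fit of the 6 arrays compared (adjusted p = 0.0103). The call without that array was lost under hybridization-control scaling (1.48, adjusted p = 0.0528). TNFSF13, the B-cell factor APRIL, read 34.3, 24.97 and 46.9 at 65 dpc, 158, 119 and 127 at 3 days, 55.0, 98.1 and 109 at 60 days and 97.2, 90.5 and 106 at 120 days. This was a rise of 1.47 ± 0.21 (SE, adjusted p = 0.000246) at 3 days that held in every left-out fit and scaling. Its second probe set, at 56.7, 67.3 and 70.4 and 99.3, 65.7 and 74.5, changed by 0.22 (adjusted p = 0.256).

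TNFSF10 after birth read 14.8, 29.4 and 31.7 at 3 days, 106, 113 and 94.1 at 60 days and 70.2, 72.5 and 209.8 at 120 days. All 60-day and all 120-day arrays lay above all 3-day arrays, and 60 and 120 days overlapped. From 3 to 60 days its change was 1.46 ± 0.60 (SE, adjusted p = 0.296) with all arrays, 1.46 ± 0.31 (SE, adjusted p = 0.0482) without fetal replicate 3, and had adjusted p = 0.0317 in the fit of the 6 arrays compared. With that array left out the call held under hybridization-control scaling (1.37, adjusted p = 0.045) and not under quantile scaling (adjusted p = 0.0517). It was the only member called in the last 2 fits at this step, beside 0.504% of all probe sets called higher without fetal replicate 3. TNF itself read between 14.5 and 32.4 at 65 dpc and 3 days, at the dim end. Its change of 0.38 ± 0.10 (SE, adjusted p = 0.0123) at 3 days was lost without 3 days array 2 (adjusted p = 0.0554) and under hybridization-control scaling (0.10, adjusted p = 0.487).

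TNFAIP8, a TNF-induced regulator of cell survival, read 112, 115 and 144 at 65 dpc, 17.4, 29.7 and 24.3 at 3 days, 31.2, 20.4 and 19.7 at 60 days and 33.0, 12.6 and 33.5 at 120 days. The fetal arrays were all more than 3-fold above every later array. The change was -1.69 ± 0.19 (SE, adjusted p = 4.66e-05) at 3 days, in all left-out fits and scalings, and its dim second probe set fell too, a change of -0.45 (adjusted p = 0.000152). TNFAIP6, a hyaluronan-binding protein of inflamed matrix, read 235, 97.1 and 102 at 65 dpc, 39.5, 44.1 and 44.4 at 3 days, 29.2, 23.0 and 18.3 at 60 days and 85.8, 37.1 and 18.8 at 120 days. It fell at 3 days, a change of -1.28 ± 0.33 (SE, adjusted p = 0.00906). At 120 days its arrays differed by more than 4-fold among themselves. TNFRSF21, death receptor 6, read 327, 832 and 418 at 65 dpc, 204, 252 and 236 at 3 days, 324, 146 and 317 at 60 days and 149.5, 216 and 251 at 120 days. The change at 3 days was -1.02 ± 0.35 (SE, adjusted p = 0.0356), and the call was lost without fetal array 2 (adjusted p = 0.15), 3 days array 1 (adjusted p = 0.103), 3 days array 2 (adjusted p = 0.0652) and 3 days array 3 (adjusted p = 0.0649), and under quantile scaling (-0.88, adjusted p = 0.0675). TNFAIP1 fell from 172, 252 and 149 to 111, 109.8 and 88.1 at 120 days, a change of -0.75 ± 0.21 (SE, adjusted p = 0.0113). TNFRSF1B, a TNF receptor of leucocytes, read 86.4, 100.2 and 510.1 in the fetus and between 135 and 294 after birth, and was called only without fetal replicate 3, by 0.96 ± 0.29 (SE, adjusted p = 0.0235) at 3 days, and then not under hybridization-control scaling (0.68, adjusted p = 0.0942). TNFAIP8L2, a relative of TNFAIP8, read between 73.7 and 119 on the 12 arrays and was not called.

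**Figure D4:**
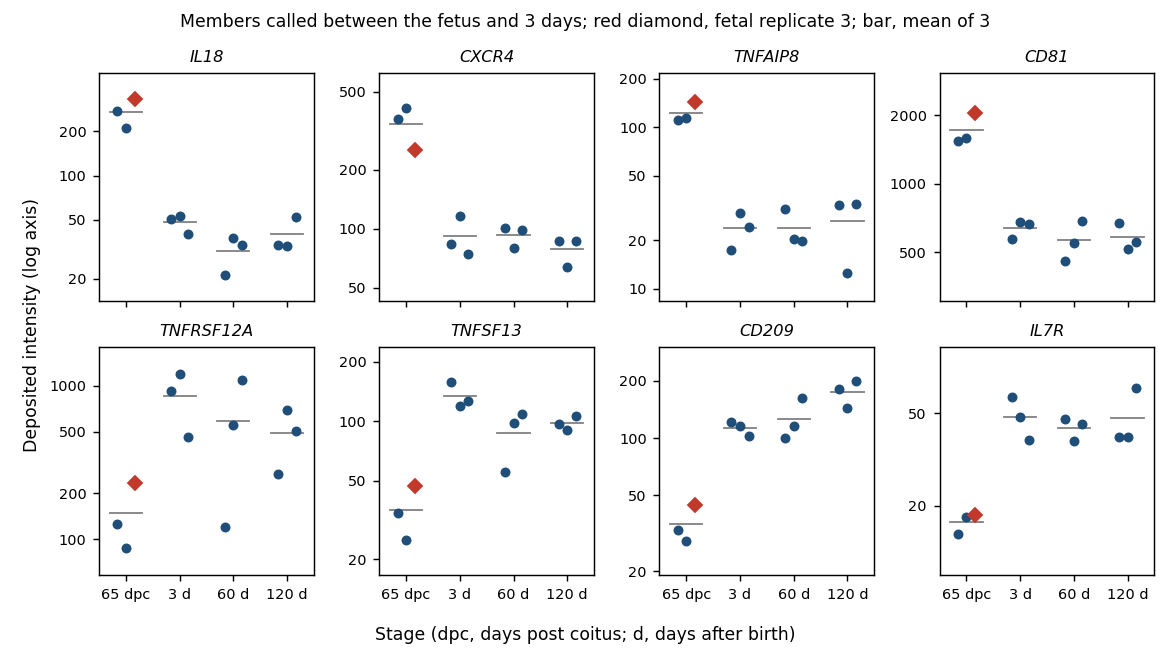
Deposited intensity (vertical log axis, a scale per panel) by stage and array of 4 members called lower at 3 days than at 65 dpc (top) and 4 called higher (bottom); circles are arrays, the red diamond is fetal replicate 3 and the grey bar is the mean of 3 arrays. For all 8 genes, as for every member called at this step, the fetal and 3-day arrays do not overlap. TNFRSF12A ranges from 119 to 1193 after birth.

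Of 42 CD molecules 5 (11.9%) were called higher and 6 (14.3%) lower at 3 days, beside 20.3% and 17.4% of all probe sets. Leaving out fetal replicate 3 gave counts of 8 and 5, beside 18.6% and 17.3%. CD81, a tetraspanin of many cell types that takes part in muscle cell fusion, read 1540.2, 1589 and 2037 at 65 dpc, 569.9, 676 and 663 at 3 days, 456, 548 and 686 at 60 days and 672, 517 and 551 at 120 days. It fell by 1.3998 ± 0.21 (SE, adjusted p = 0.000381), with every fetal array at least 2-fold above every later one, and was called in all left-out fits and scalings. CD34, of vessel lining and progenitor cells, fell from 142, 184 and 159 to 104, 97.8 and 73.2, a change of -0.70 ± 0.16 (SE, adjusted p = 0.00461). CD164, a sialomucin of progenitor cells, read 714, 1491 and 709.7 and 451, 496 and 474 at 65 dpc and 3 days. The change was -0.92 ± 0.30 (SE, adjusted p = 0.0285), and the call was lost without fetal array 2 (adjusted p = 0.113), 3 days array 1 (adjusted p = 0.0784), 3 days array 2 (adjusted p = 0.0607) and 3 days array 3 (adjusted p = 0.0571). Its second probe set, at 631, 1041 and 678 and 495, 542 and 626, changed by -0.45 (adjusted p = 0.147).

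CD209, a lectin of dendritic cells and macrophages known as DC-SIGN, read 32.7, 28.6 and 44.3 at 65 dpc, 122, 115 and 102 at 3 days, 99.6, 116 and 163 at 60 days and 182, 143 and 200.4 at 120 days. All fetal arrays lay below all later arrays. It rose by 1.26 ± 0.19 (SE, adjusted p = 0.000337) at 3 days and by 1.80 ± 0.19 (SE, adjusted p = 2.03e-05) at 120 days, in all left-out fits and scalings. Its 44.3 on fetal replicate 3 was the highest of its stage, though below all later arrays. Of the 8 macrophage markers 7 were at least 2-fold up on that fetal array. CD14, the lipopolysaccharide co-receptor of monocytes, read 31.0, 22.8 and 49.3 at 65 dpc, 48.7, 43.7 and 51.01 at 3 days, 44.3, 37.9 and 39.4 at 60 days and 69.8, 62.1 and 117 at 120 days. Its change at 120 days was 0.90 ± 0.19 (SE, adjusted p = 0.00278) with all arrays, not called under hybridization-control scaling (0.47, adjusted p = 0.0759). CD1.1, which presents lipids, rose to 120 days by 0.74 ± 0.14 (SE, adjusted p = 0.00108), again not under hybridization-control scaling (0.31, adjusted p = 0.0966). CD9, a tetraspanin of cell fusion, read 437, 265 and 475 at 65 dpc, 213, 217 and 285 at 3 days, 376, 648 and 736 at 60 days and 691, 588 and 451 at 120 days. All 120-day arrays lay above all 3-day arrays, and the change between them was 1.20 ± 0.29 (SE, adjusted p = 0.0491). This call was lost without fetal array 1 (adjusted p = 0.066), 3 days array 1 (adjusted p = 0.145), 3 days array 2 (adjusted p = 0.156), 3 days array 3 (adjusted p = 0.0665), 120 days array 1 (adjusted p = 0.205), 120 days array 2 (adjusted p = 0.169) and 120 days array 3 (adjusted p = 0.0641) and under hybridization-control scaling (1.04, adjusted p = 0.0612), median centring (adjusted p = 0.0529) and the replicate block (adjusted p = 0.0746).

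CD163 read 65.9, 117 and 868 at 65 dpc, 155, 175 and 603 at 3 days, 233, 224 and 281 at 60 days and 191, 118 and 342 at 120 days. The highest arrays were fetal replicate 3 and 3 days replicate 3, and no step was called. CD46 and CD93 were also highest on 3 days replicate 3, at 1208 and 491 against 197 and 304 and 90.1 and 72.0 on the others. On that array the summed level of 5 neutrophil markers was 329, against 72.4 to 144 on the other 11, and the part of such cells was not tested. CD74 after birth read 116, 118 and 69.2 at 3 days, 111, 177 and 362 at 60 days and 208, 227 and 453 at 120 days. It was called at 120 days against the fetus only without fetal replicate 3, by 2.02 ± 0.41 (SE, adjusted p = 0.0025), and against 3 days only in the fit of the 6 arrays (adjusted p = 0.0377). In the fetus CD53 read 80.3, 76.9 and 645. CD2 read 16.3, 15.3 and 288. CD180, a B-cell and macrophage receptor, read 14.7, 17.3 and 82.5. Of the T-cell receptor complex, CD3E and CD3G stayed under 34 on every array after birth, while CD3D read 52.4, 36.3 and 74.4 at 65 dpc, 53.9, 45.2 and 59.1 at 3 days, 35.2, 50.7 and 41.9 at 60 days and 49.7, 52.2 and 54.7 at 120 days, with overlapping stages and no call. Without fetal replicate 3, CD3G was called higher than in the fetus at 3 days, by 0.33 ± 0.12 (SE, adjusted p = 0.0491). At 120 days its rise was 0.60 ± 0.12 (SE, adjusted p = 0.00224). Neither CD3G call held under hybridization-control scaling (adjusted p = 0.804 and 0.31), and only the second did under quantile scaling (adjusted p = 0.114 and 0.0052). CD8A, the co-receptor of killer T cells, was called higher at 120 than at 3 days without fetal replicate 3, by 0.55 ± 0.12 (SE, adjusted p = 0.031), at 6.48, 9.33 and 9.53 and 18.8, 16.6 and 32.6, but not under hybridization-control scaling (0.40, adjusted p = 0.122). CD4, its helper-cell counterpart, read between 21.3 and 40.9 on the 12 arrays and was not called. Its dimmer second probe set read 9.66, 11.9 and 16.3 in the fetus and 22.8, 24.3 and 19.1 at 3 days and was called higher, at 0.36 (adjusted p = 0.00879). CD63, a lysosomal tetraspanin, and CD59, a complement regulator, read from 792 to 2956 and from 741 to 1864, with overlapping stages, and neither was called at any step.

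**Figure D5:**
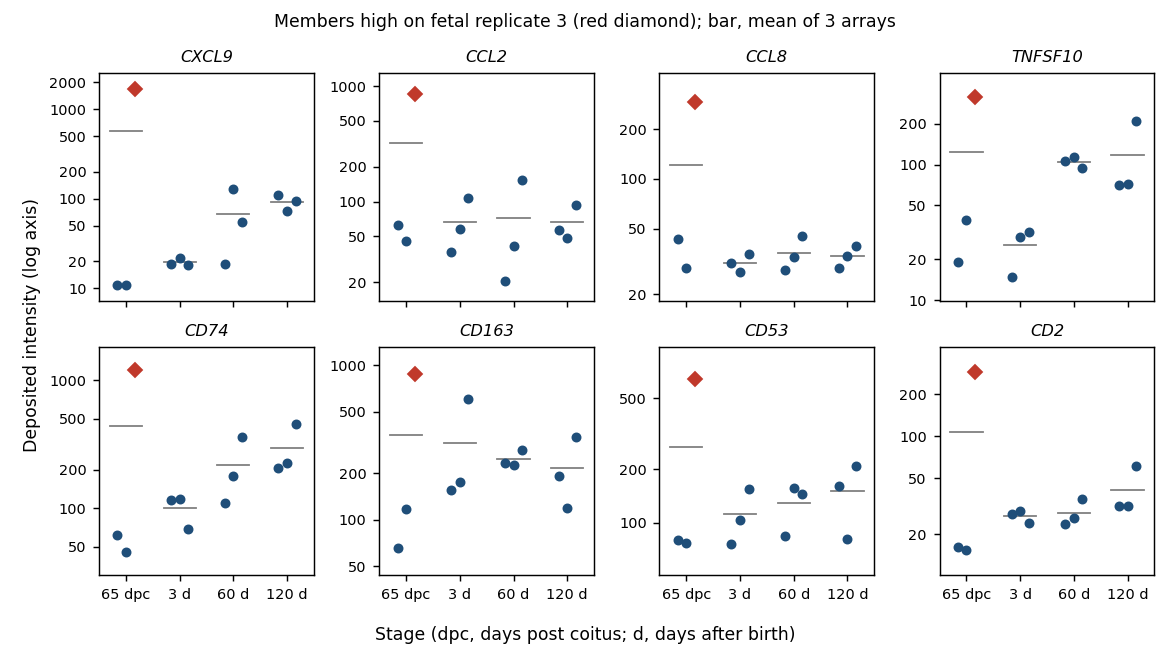
Deposited intensity (vertical log axis, a scale per panel) by stage and array of 8 members that were high on fetal replicate 3; circles are arrays, the red diamond is that array and the grey bar is the mean of 3 arrays. In CXCL9 the diamond is at 1689.5 while fetal replicate 1 is at 10.8, and CXCL9, TNFSF10 and CD74 are higher on all 120-day than on all 3-day arrays.

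Genes outside the rule were measured in fixed lists. Of 19 measured interferon-induced genes 2 were called higher at 120 than at 3 days with all arrays, OAS1, which senses viral RNA, and RSAD2, an antiviral enzyme, and 9 without fetal replicate 3, beside 1.33% and 1.68% of all probe sets. RSAD2 read 15.7, 20.1 and 16.1 at 3 days, 105, 111 and 249.8 at 60 days and 115, 134 and 536 at 120 days. The summed level of the list was 1084 to 1453 at 3 days, 2339 to 3842 at 60 days and 2684 to 6947 at 120 days, the last on replicate 3. On that 120-day array 73 of 130 members (56.2%) were also the highest of their stage, against 39.0% of all probe sets, among them SLA-2 and SLA-DRA. Whether the interferon-induced genes have a part in the course of the SLA genes was not tested. Of 15 genes of antigen processing 2 were higher and 1 lower at 3 days, of 16 of Toll-like receptor and NF-kappa-B signalling 1 and 0, and of 24 of cytokine signalling 4 and 5, beside 20.3% and 17.4% of all probe sets. Leaving out fetal replicate 3 made these counts 5 and 0, 2 and 0, and 6 and 3, beside 18.6% and 17.3%. TYK2, a kinase of interferon and cytokine receptors, fell from 284, 442 and 343 to 175, 148 and 152, a change of -1.05 ± 0.18 (SE, adjusted p = 0.000974).

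At 3 days, with all arrays, 0 of 8 macrophage markers were called, 1 of 10 pan-leucocyte markers was lower, 2 of 5 neutrophil markers were higher and of 4 T and natural killer cell markers 1 was higher and 1 lower, beside 20.3% higher and 17.4% lower of all probe sets. With fetal replicate 3 left out 1 of 8 macrophage markers was higher, 4 of 10 pan-leucocyte markers were higher and 1 lower, 1 of 5 neutrophil markers was higher and of the 4 others 2 were higher and 1 lower, beside 18.6% and 17.3%. Among those 4, LCK and GNLY were the higher and THY1 was the lower. From 65 dpc to 120 days, with all arrays, 0 of 8 macrophage and 0 of 10 pan-leucocyte markers were higher. In each list 1 was lower, beside 24.4% higher and 19.6% lower of all probe sets. With fetal replicate 3 left out 4 of 8 macrophage markers were higher and 0 lower. Of the 10 pan-leucocyte markers 6 were then higher and 1 lower, beside 23.1% and 19.3%. No neutrophil marker was called at this step in either fit. The part of these cells in the rises of the members was not tested. JCHAIN, the joining chain of antibody made by plasma cells and the only measured marker of 9 for that lineage, read 25.4, 35.4 and 50.4 at 65 dpc, 69.6, 80.5 and 63.0 at 3 days, 122, 135 and 94.4 at 60 days and 176, 144 and 241 at 120 days. It rose from 3 to 120 days by 1.15 ± 0.20 (SE, adjusted p = 0.0114). Fibroblast markers were lower at 3 days in 3 of 5 and skeletal-muscle markers higher in 6 of 8, beside 17.4% lower and 20.3% higher of all probe sets. With fetal replicate 3 left out the counts were 3 and 5, beside 17.3% and 18.6%.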

How the data were processed

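Total RNA (6 ug per array) from 12 longissimus dorsi samples was hybridized to Affymetrix porcine arrays, per the labels' protocols. The deposited intensities are linear values per probe set, made by the authors with GCOS 1.4 per the submitters' processing notes; no source used here states how probes were summarised or arrays scaled. The number of arrays limits the precision, and p-values measure only the spread between these samples.

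Of 24123 probe sets, 124 controls were left out and 23999 tested. The platform annotation, of 2016, gave 1 symbol to 10069 probe sets, several to 198 and listed none for 13732. Values were analysed as log2(value + 21) with limma 3.58.1 (lmFit, eBayes with trend, Benjamini-Hochberg) in R 4.3.3, with Python 3.11.15. The pseudocount is near the 25th percentile. The script was tested on simulated data. Alternatives covered the pseudocount, filters, scaling, variance model, probe set, replicate block, a 2-fold minimum and leaving out each array. Same-numbered samples of different stages had deviations that correlated between -0.41 and 0.28 (median 0.087, n = 18 pairs), so the numbers were not taken to pair samples.

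The members and gene lists were chosen with earlier results of these data known. Named members were those called with the largest changes and no overlap (up to 10 per step and direction), the 3 brightest per family, the 5 with the smallest overall p, those with 1 array far from its stage, and a fixed set. The following were named after their values were seen: CCL8, CXCL8, CXCL16, CCR3, CCR7, IL1R1, IL2RG, IL7R, SLA-6, SLA-7, SLA-DMA, SLA-DOA, CD2, CD34, CD46, CD53, CD93, CD180, the T-cell genes CD3D, CD3E, CD3G and CD8A, and the dim interleukins. Genes outside the rule were not recomputed under the other scalings.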

Additional observations from a re-analysis of the deposited data

How the results depend on the processing

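Counts are of the 130 members, in the order higher and lower. A pseudocount of 51, median centring and the replicate block each left 0 members higher at 120 than at 3 days (330, 323 and 272). With the replicate block 37 were called across the 4 stages. Against 65 dpc it gave 22 and 20 (4452 and 3994) at 3 days and 25 and 16 (5426 and 4499) at 120 days. The filter on 3 arrays left 12 higher (3286 of 16166) at 3 days and 15 (3778 of 16166) at 120 days against 65 dpc. The filter on the mean left 11 (2855 of 14399) and 13 (3277 of 14399). Both test fewer genes. Hybridization-control centring gave 6 and 31 (1238 and 7399) at 3 days and 0 higher (158) from 3 to 120 days. At 120 days against 65 dpc it gave 5 and 49 (1263 and 12064). Array weights gave 1 higher (232) from 3 to 60 days and 6 and 2 (1666 and 1559) from 3 to 120 days. The fit of the 6 arrays compared gave 1 (18), and 12 and 2 (722 and 678). A 2-fold minimum, not counted over all probe sets, left 4 and 8 at 3 days and 4 and 9 at 120 days. Other settings, without fetal replicate 3, were chosen after seeing the data. Hybridization-control centring then gave 9 higher (1074) at 3 days, 1 higher (81) from 3 to 60 days and 8 higher (210) from 3 to 120 days. It gave 37 lower (10512) at 120 days against 65 dpc. Quantile normalization then gave 10 higher (455) from 3 to 120 days and 40 higher (4584) at 120 days against 65 dpc. Leaving out 1 array at a time gave 26 to 57 members across the stages, 15 to 33 higher and 13 to 21 lower at 3 days, 0 to 1 higher from 3 to 60 days, 0 to 10 higher and 0 to 1 lower from 3 to 120 days, and 17 to 51 higher and 13 to 21 lower at 120 days against 65 dpc. Over all probe sets these fits gave 3257 to 5062 higher and 3220 to 4273 lower at 3 days, and 31 to 121 higher from 3 to 60 days. From 3 to 120 days they gave 88 to 403 higher and 76 to 365 lower. At 120 days against 65 dpc they gave 4368 to 6009 higher and 3810 to 4786 lower. The highest counts of member rises came without fetal replicate 3.

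Some log2 changes turned their sign. Hybridization-control centring turned 12 rises from 65 dpc to 120 days and 5 at 3 days. Among them were, at 120 days, IL1B (-0.070), CCR2 (-0.12), TNF (-0.044) and IL6 (-0.28), and IL6 at 3 days (-0.051). With fetal replicate 3 also left out it turned 13 and 2 of the rises called without that array. Among the genes with a sign opposite to the 12-array fit were then IL1B (-0.073), CCR2 (-0.11), TNF (-0.0097) and IL6 (-0.25 and, at 3 days, -0.025), while CXCL9 (1.38) and SLA-DMB (0.87) turned to positive. With 1 array left out at a time SLA-DRB1 at 3 days ranged from -1.27 to 0.80, CXCL9 at 120 days from -1.06 to 1.82 and SLA-DMB at 120 days from -0.73 to 1.31, each highest without fetal replicate 3. Without that array and with quantile normalization they were 0.95, 1.78 and 1.32. The second probe set turned IL4R (-0.16 at 3 days, -0.43 at 120 days) and CXCL12 (0.29 at 120 days). The cause was not tested.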
